A study of Mus musculus with 4 samples.

Results

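The Zic genes encode zinc finger transcription factors of the granule cell lineage, and 4 of them, Zic1, Zic2, Zic4 and Zic5, were measured in mouse medulloblastoma and normal cerebellum. They were chosen by name, as the probe sets whose single platform-annotated symbol was one of these 4. This gave 6 probe sets for 4 genes, out of 19938 genes with a single-symbol probe set. Zic1 and Zic2 had 1 probe set each. Zic4 and Zic5 had 2 each, and the one with the higher mean over the 4 arrays was used, with the other described beside it.

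The series holds 4 arrays (Affymetrix Mouse Gene 1.0 ST), each of 1 tissue sample of total RNA. A medulloblastoma came from a PtchLacZ/+ mouse at 5 months of age, in which 1 copy of Ptch1, whose product restrains Hedgehog signalling, is a lacZ allele. Another 2 came from Math1-Cre;SmoM2 mice at 2 months and at 1 month, in which Cre of the Math1 (Atoh1) lineage switches on an active form of Smoothened, and they are called the SmoM2 tumours. The control was whole cerebellum of a wild-type mouse at 2 months. All mice had a mixed background of C57BL/6 and C3H. The labels do not say how many animals a sample came from, so p-values measure the spread among these samples only. That spread comes from tumours of different ages, and in tumours against cerebellum also of different genotypes. It may hold technical differences too. The tumours differ in age as well as genotype, and these cannot be told apart.

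Zic stands for zinc finger of the cerebellum. The proteins bind DNA through a block of C2H2 zinc fingers that is related to that of the Gli and Glis factors. The Gli factors are the transcription factors of the Hedgehog pathway. In the mouse cerebellum, Zic1 and Zic2 are made by dividing granule neuron progenitors and by the granule neurons that arise from them, and loss of Zic1 leaves a small cerebellum. Zic2 is also needed for forebrain patterning and Zic5 for neural tube closure and neural crest, while loss of ZIC1 together with ZIC4 has been linked to Dandy-Walker malformation in humans. The genes lie as neighbouring pairs in head-to-head orientation, Zic1 with Zic4 on chromosome 9 and Zic2 with Zic5 on chromosome 14.

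Promoter windows of Zic1, Zic4 and Zic5 are shown, and the sequences used here held none for Zic2. By the probe sets used, the neighbours Zic1 and Zic4 had different patterns in the arrays. Zic4 and Zic5, genes on different chromosomes, had like ones. Whether the windows bear on these patterns was not tested. The windows are RefSeq sequences of build GRCm38.p6 that run from 250 bases before to 50 bases after the annotated start. They are given 5′ to 3′ on the gene's strand, with CpG dinucleotides in capitals. Zic1 lies at chr9:91365719-91366018 on the minus strand, Zic4 at chr9:91368722-91369021 on the plus strand and Zic5 at chr14:122465609-122465908 on the minus strand.
Zic1: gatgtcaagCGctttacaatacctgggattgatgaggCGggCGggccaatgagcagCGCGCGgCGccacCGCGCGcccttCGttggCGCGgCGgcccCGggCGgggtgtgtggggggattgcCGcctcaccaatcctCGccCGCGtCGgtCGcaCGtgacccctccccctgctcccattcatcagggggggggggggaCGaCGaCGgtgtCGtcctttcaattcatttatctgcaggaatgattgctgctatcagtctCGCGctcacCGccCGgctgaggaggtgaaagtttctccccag
Zic4: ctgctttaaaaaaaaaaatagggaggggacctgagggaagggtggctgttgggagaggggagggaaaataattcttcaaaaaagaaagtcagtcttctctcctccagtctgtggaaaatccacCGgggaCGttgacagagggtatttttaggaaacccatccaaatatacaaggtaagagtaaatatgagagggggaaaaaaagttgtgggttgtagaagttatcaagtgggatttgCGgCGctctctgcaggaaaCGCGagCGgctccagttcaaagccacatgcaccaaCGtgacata
Zic5: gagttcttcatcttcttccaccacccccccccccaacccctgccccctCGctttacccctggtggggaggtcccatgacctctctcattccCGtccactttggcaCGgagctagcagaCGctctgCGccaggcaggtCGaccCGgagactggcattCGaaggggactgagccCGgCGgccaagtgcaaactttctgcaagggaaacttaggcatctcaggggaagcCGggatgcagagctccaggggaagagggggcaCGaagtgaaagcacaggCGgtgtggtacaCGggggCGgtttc

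The Zic1 window had 31 CpG dinucleotides and 65.3% G and C, and 10.6% of all 32851 promoter windows had as many CpG or more. Zic5 had 15 CpG (34.6% of windows had as many or more) and Zic4 had 8 (48.6%), against a median of 7 over all windows. The Gli motif GACCACCCA, the E-boxes CAGCTG and CAGATG, the Zic motif CAGCAGG and the TATA motif TATAAA were searched on both strands and had no match in the 3 windows. Of all windows, 0.253%, 16.3%, 17.2%, 10.5% and 13.6% held these motifs in the order given. The letters CCAAT, searched in the same way, matched at 2 places in the Zic1 window and at none in the others, and 37.4% of all windows held them. Since CCAAT was the only motif matched, no overlap between different motifs could arise in these windows.

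Zic1 and Zic2 did not pass the test in tumours against cerebellum, and only the SmoM2 tumour at 2 months lay more than 0.5 from the cerebellum, on the lower side for both. Levels below are log2 values as deposited, and a difference of 1 is a doubling. Zic1 was at 12.15 in the PtchLacZ/+ tumour, 11.56 in the SmoM2 tumour at 2 months and 12.30 in that at 1 month, against 12.18 in the cerebellum. The cerebellum thus lay within the range of the tumours, between the 1-month SmoM2 and the PtchLacZ/+ tumour. Zic2 was at 10.90 in the PtchLacZ/+ tumour, 10.28 and 10.97 in the SmoM2 tumours at 2 months and 1 month, and 11.03 in the cerebellum. All 3 tumours were below the cerebellum for Zic2, as for 32.0% of all genes, and the SmoM2 tumour at 2 months was the lowest array for both genes, as for 20.2% of all genes.

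The tumours were compared with the cerebellum to ask whether the Zic genes differ between Hedgehog-driven medulloblastoma and normal tissue. In limma's fit over all 19938 genes, Zic1 differed by -0.17 ± 0.33 (standard error) in tumours against cerebellum, with a 95% interval of -1.02 to 0.68 (adjusted p = 0.812). Zic2 differed by -0.31 ± 0.32, with an interval of -1.13 to 0.52 (adjusted p = 0.624). On the linear scale these intervals run from 0.494-fold to 1.60-fold for Zic1 and from 0.456-fold to 1.43-fold for Zic2. With these standard errors, only a difference of at least 1.40 for Zic1 or 1.37 for Zic2 would have passed, so the test does not show that the levels were equal. In the same fit Atoh1, the transcription factor that defines granule neuron progenitors, rose by 6.88 ± 0.28 (adjusted p = 0.00295).

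Zic4 and the probe set used for Zic5 were higher in every tumour than in the cerebellum, by about 2-fold on average, but neither passed when adjusted over all genes. Zic4 was at 8.94 in the PtchLacZ/+ tumour and 8.22 and 9.23 in the SmoM2 tumours at 2 months and 1 month, against 7.72 in the cerebellum. Zic5 was at 9.97 in the PtchLacZ/+ tumour and 9.37 and 10.13 in the SmoM2 tumours at 2 months and 1 month, against 8.73 in the cerebellum. The groups did not overlap for either gene. All 3 tumours lay above the cerebellum for 38.1% of all genes, so this separation is common in the series.

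The Zic4 difference was 1.08 ± 0.41, or 2.11-fold, with a 95% interval of 0.02 to 2.14 (limma, unadjusted p = 0.0472, adjusted p = 0.162). The Zic5 difference was 1.10 ± 0.34, or 2.14-fold, with an interval of 0.23 to 1.96 (unadjusted p = 0.0226, adjusted p = 0.0989). A mean difference of at least 1 in this direction was present in 7.48% of genes. In all, 0 of 4 Zic genes passed an adjusted p under 0.05, where 16.0% of all genes did (6.70% higher and 9.30% lower in tumours), and 2 of 4 had an unadjusted p under 0.05, where 29.7% of all genes did. Without the 2-month SmoM2 tumour the differences were 1.37 ± 0.19 for Zic4 (adjusted p = 0.00472) and 1.32 ± 0.16 for Zic5 (adjusted p = 0.00346), both past the threshold, as were 13.5% of all genes in this direction and 30.1% in either.

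**Figure D1:**
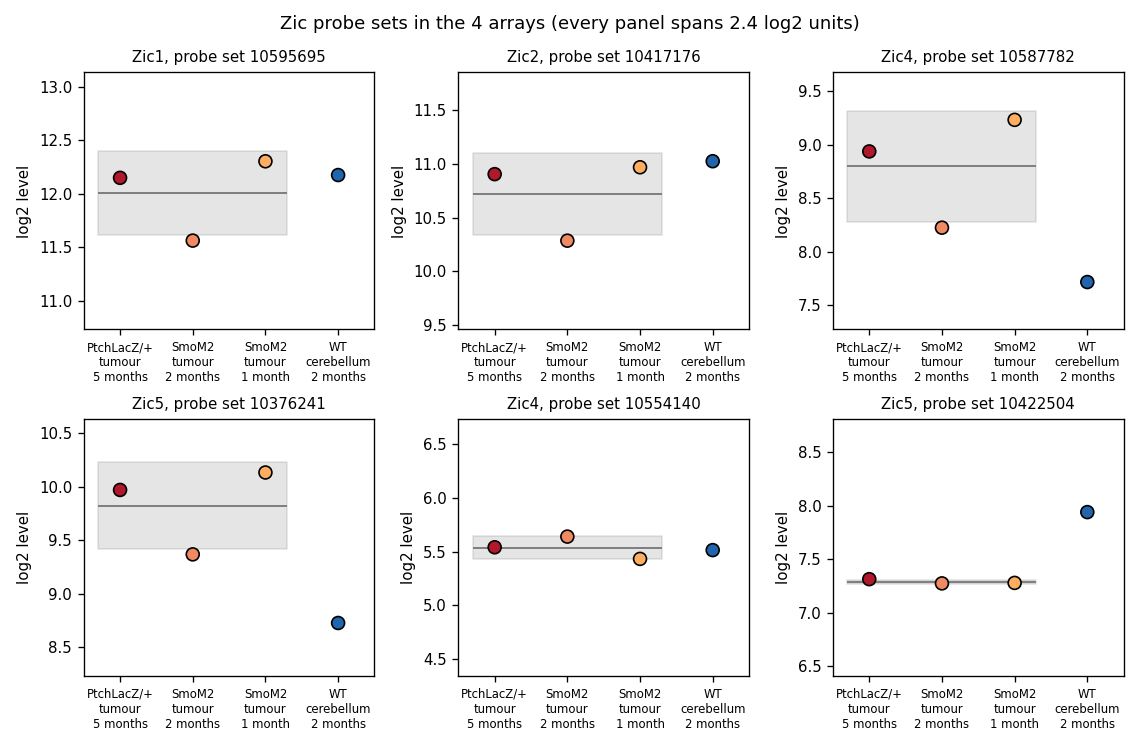
Log2 levels of the 6 Zic probe sets in the PtchLacZ/+ tumour, the SmoM2 tumours at 2 months and 1 month and the wild-type cerebellum, 1 point per array, with the tumours' mean (line) and SD (shaded, n = 3). The 2-month SmoM2 tumour is the lowest tumour for Zic1, Zic2, Zic4 (10587782) and Zic5 (10376241), and the 2 probe sets of Zic5 lie on opposite sides of the cerebellum.

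The 2 probe sets of Zic5 gave opposite directions, so the array does not settle how Zic5 differs between tumour and cerebellum. The values above are those of probe set 10376241. The second, 10422504, was at 7.31 in the PtchLacZ/+ tumour and 7.28 in each SmoM2 tumour, against 7.94 in the cerebellum. Here the tumours lay close together and all below the cerebellum, with a difference of -0.65 ± 0.16 and a 95% interval of -1.07 to -0.23 in a fit over all single-symbol probe sets (limma, unadjusted p = 0.0111, adjusted p = 0.0621). It passed without the 2-month SmoM2 tumour (-0.64 ± 0.15, adjusted p = 0.0285). The mean of both probe sets differed by 0.22 ± 0.22 (adjusted p = 0.603). By number, 10422504 lies closer than 10376241 to the probe set of the neighbour Zic2, 10417176. Where 10376241 maps was not tested, so its values may not be those of Zic5.

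The probe sets of Zic4 also differed. The second, 10554140, was at 5.54 in the PtchLacZ/+ tumour, 5.64 and 5.43 in the SmoM2 tumours at 2 months and 1 month, and 5.51 in the cerebellum. These values span 0.21 over the 4 arrays, against 1.51 for probe set 10587782, and the groups overlapped. All 4 values lay above the lower quartile of named genes in their array (5.09 to 5.17), a level taken here as the limit of what is shown to exceed background. Background itself was not measured, and all 4 values lay below the array medians of named genes (6.73 to 6.82). The difference was 0.02 ± 0.18 (adjusted p = 0.959), and the mean of both Zic4 probe sets differed by 0.55 ± 0.22 (adjusted p = 0.182). Which transcripts each probe set reads was not tested.

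**Figure D2:**
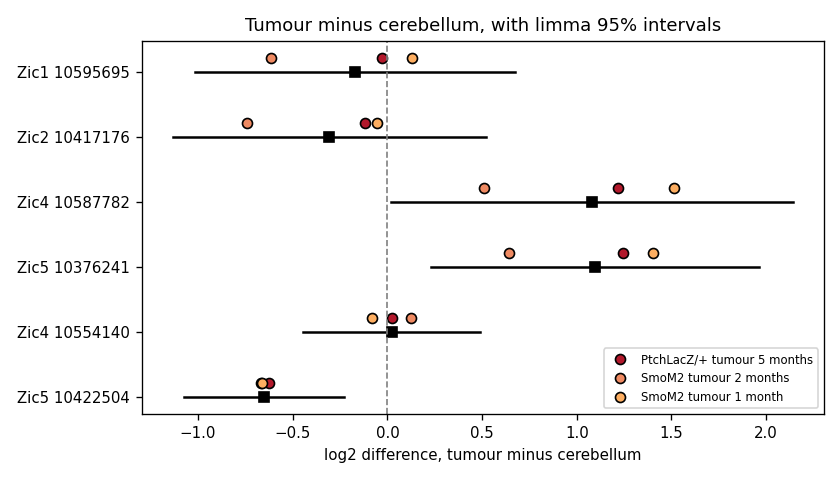
Log2 difference from the cerebellum for each tumour (circles) and for the mean of 3 tumours (squares) with limma's 95% interval (bars), for the 6 Zic probe sets. Intervals of Zic1 10595695, Zic2 10417176 and Zic4 10554140 include 0, those of Zic4 10587782 and Zic5 10376241 lie above it and that of Zic5 10422504 lies below it, before adjustment over all genes.

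By the probe sets used, the patterns over the 4 arrays fell into like pairs that did not follow the annotated chromosome of the gene. For Zic4 and Zic5 this did not hold with the second Zic5 probe set. Where each probe set itself maps was not tested. Likeness was measured as the root mean square difference between profiles over the 4 arrays, each centred on its own mean, in log2 units. It was 0.07 between Zic1 and Zic2, whose genes lie on chromosomes 9 and 14. It was 0.09 between Zic4 (10587782) and Zic5 (10376241), whose genes lie on the same 2 chromosomes. Between the neighbours Zic1 and Zic4 it was 0.55, and between the neighbours Zic2 and Zic5 it was 0.61. The 2 probe sets of Zic5 differed from each other by 0.81. With the second Zic5 probe set, the value against the neighbour Zic2 was 0.30 and that against Zic4 was 0.83, so the likeness of Zic4 and Zic5 rests on the choice of probe set.

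The SmoM2 tumours themselves were set side by side, with no test, since there was 1 array at each age. All 4 Zic genes were lower at 2 months than at 1 month. The difference of 2 months minus 1 month was -0.74 for Zic1, -0.69 for Zic2, -1.01 for Zic4 and -0.76 for Zic5. These are 0.599, 0.622, 0.498 and 0.589 times the level at 1 month in the same order. Of all genes, 8.57% were lower at 2 months by at least 0.5 and 2.05% by at least 1, against 4 of 4 and 1 of 4 Zic genes. Over genes above the median level, to which all 4 belong, 12.2% were lower by at least 0.5. The median difference over all genes was 0.08 in the other direction, and after quantile normalization the Zic differences ran from -1.12 to -0.80. The second probe sets did not follow, with 0.21 for Zic4 and -0.0045 for Zic5.

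The 2-month SmoM2 tumour was also the lowest of the 3 tumours for all 4 Zic genes, which held for 30.8% of all genes. For Zic1 the order of the levels from high to low was SmoM2 at 1 month, cerebellum, PtchLacZ/+ and SmoM2 at 2 months, with gaps of 0.13, 0.03 and 0.59. For Zic2 it was cerebellum, SmoM2 at 1 month, PtchLacZ/+ and SmoM2 at 2 months, with gaps of 0.06, 0.06 and 0.62. For Zic4 and Zic5 it was SmoM2 at 1 month, PtchLacZ/+, SmoM2 at 2 months and cerebellum, with gaps of 0.29, 0.71 and 0.51 for Zic4 and 0.16, 0.60 and 0.64 for Zic5. The gap between the cerebellum and the nearest tumour was under the SD of the tumours (n = 3) for Zic1 (0.03 against 0.39), Zic2 (0.06 against 0.38) and Zic4 (0.51 against 0.52), and above it for Zic5 (0.64 against 0.40). Gaps between the tumours themselves make up that SD and were not judged by it.

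A second comparison, of the PtchLacZ/+ tumour with both SmoM2 tumours, asked whether the Zic genes differ with the way the Hedgehog pathway was activated. The PtchLacZ/+ tumour lay between the SmoM2 tumours for all 4 genes by the probe sets used. The share of all genes with this order was not counted. Zic1 was at 12.15 in the PtchLacZ/+ tumour and averaged 11.93 ± 0.52 in the SmoM2 tumours (SD, n = 2). Zic2 was at 10.90 in the PtchLacZ/+ tumour against 10.63 ± 0.48, Zic4 at 8.94 against 8.73 ± 0.71 and Zic5 at 9.97 against 9.75 ± 0.54 in the SmoM2 tumours. The differences ran from 0.21 for Zic4 to 0.28 for Zic2, with 95% intervals that reached from -1.03 at the lowest to 1.45 at the highest, both for Zic4 (limma, adjusted p = 1.00 for each). In this comparison 0.00% of all genes passed an adjusted p under 0.05, and at an unadjusted p under 0.05 it was 0 of 4 Zic genes and 1.40% of all genes.

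The Gli and Glis genes, whose zinc fingers are related to those of the Zic proteins, were read in the same fit. Of 6, 3 rose in the tumours and 3 did not pass, with a median difference of 0.68, against 0.04 over all genes. The share of all genes that passed as higher in tumours was 6.70%. Gli1, a direct target and effector of Hedgehog signalling, was at 10.03 in the PtchLacZ/+ tumour, 9.29 and 9.37 in the SmoM2 tumours at 2 months and 1 month, against 7.21 in the cerebellum, and rose by 2.36 ± 0.34 (adjusted p = 0.0138). Gli2, the main activator of the pathway, was at 8.75 in the PtchLacZ/+ tumour, 8.27 and 8.38 in the SmoM2 tumours, against 5.97 in the cerebellum, and rose by 2.49 ± 0.25 (adjusted p = 0.00652). Both were higher in every tumour, with measured differences above those of every Zic gene. Gli3, mostly a repressor, was at 5.21 in the PtchLacZ/+ tumour, 4.76 and 5.45 in the SmoM2 tumours, against 5.97 in the cerebellum, and did not pass (-0.83 ± 0.30, adjusted p = 0.147). Its level in the 2-month SmoM2 tumour lay below the quartile used as the background limit (5.17 in that array), and without this tumour the difference passed (-0.64, adjusted p = 0.0445).

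Of the Glis genes, Glis2 was at 8.41 in the PtchLacZ/+ tumour, 8.34 and 8.55 in the SmoM2 tumours at 2 months and 1 month, and 7.34 in the cerebellum, and rose by 1.09 ± 0.18 (adjusted p = 0.0204). This difference is of the size of those of Zic4 and Zic5, with a smaller standard error. Glis2 did not pass without the 1-month SmoM2 tumour (adjusted p = 0.0592) or the PtchLacZ/+ tumour (adjusted p = 0.0856). Glis1 differed by 0.25 ± 0.21 (adjusted p = 0.528) and Glis3 by 0.28 ± 0.16 (adjusted p = 0.356).

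Other transcription factors of the granule lineage ranged from a fall in 4 to a rise in 11. Of 30 measured, 15 did not pass, and the median difference of the list was 1.04. Among the factors that rose were Atoh1 and Nhlh1, a basic helix-loop-helix factor of newly formed neurons. Atoh1 was at 11.98 in the PtchLacZ/+ tumour, 11.84 and 11.39 in the SmoM2 tumours at 2 months and 1 month, against 4.85 in the cerebellum. Nhlh1 rose by 5.75 ± 0.34 (adjusted p = 0.00335). In the cerebellum, Atoh1 and Nhlh1 lay below the quartile used as the background limit, so their differences are lower limits and are not ranked. The largest negative differences were those of Etv1, an ETS factor of maturing granule neurons, at -2.16 ± 0.54 (adjusted p = 0.0599), and of En2, a homeobox factor of cerebellar patterning, which fell by 2.00 ± 0.17 (adjusted p = 0.00510). Etv1 passed when any 1 tumour was left out (adjusted p = 0.0256 to 0.0379). Without the 2-month SmoM2 tumour 23 of the 30 passed, in a fit where the share of all genes passing was 30.1%, against 16.0% with all 3 tumours.

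**Figure D3:**
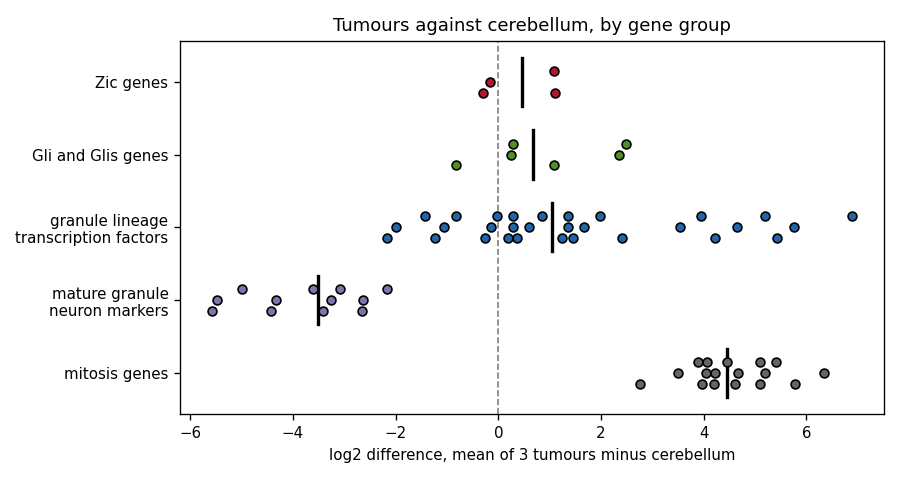
Log2 difference of the mean of 3 tumours minus the cerebellum for the 4 Zic genes, 6 Gli and Glis genes, 30 granule lineage transcription factors, 12 mature granule neuron markers and 17 mitosis genes (1 point per gene, vertical position within a group has no meaning, black bar the median). The Zic genes lie between -0.31 and 1.10, while mitosis genes lie above 0 and mature granule neuron markers below it.

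Several of these factors shared the lower level in the 2-month SmoM2 tumour. Of the 30, 13 were lower at 2 months than at 1 month by at least 0.5 and 1 was higher by as much, with a median of -0.29. Lower by at least 0.5 were 8.57% of all genes and 12.2% of those above the median level. Rises were more common than falls at this size over all genes, with 818 genes higher by 0.5 to 0.6 and 459 lower by 0.5 to 0.6. The full share of genes higher by at least 0.5 is not given here. Examples, chosen after their values were seen, were Nfia (-1.52), a nuclear factor I gene, Neurod1 (-1.11) and Meis1 (-1.08). Pax6, a factor of granule progenitors and neurons, was at 10.32 in the PtchLacZ/+ tumour, 9.14 and 9.86 in the SmoM2 tumours at 2 months and 1 month, and 9.48 in the cerebellum. Its difference in tumours against cerebellum was 0.29 ± 0.46 (adjusted p = 0.765), and like Zic1 it had the cerebellum within the range of the tumours. Atoh1 did not share the pattern and was higher at 2 months, by 0.45. Of 12 mature granule neuron markers 5 were lower by at least 0.5 and 1 was higher, while of 17 mitosis genes 2 were lower and 4 higher.

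**Figure D4:**
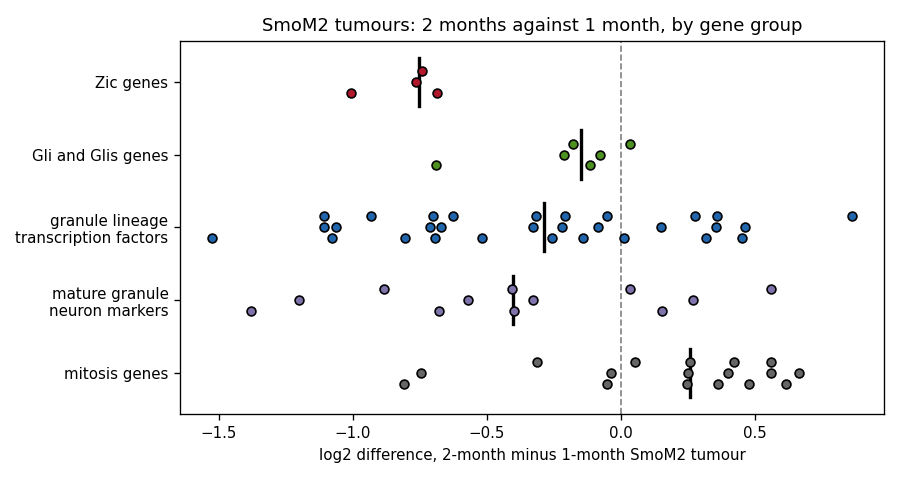
Log2 difference of the 2-month minus the 1-month SmoM2 tumour (1 array each) for the same gene groups (1 point per gene, black bar the median). All 4 Zic genes lie between -1.01 and -0.69, whereas the mitosis genes have a median of 0.26.

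Markers of other cell types that a dissected sample can hold were read in the same fit. In whole tissue a smaller share of cells and less RNA per cell cannot be told apart. Over all genes 6.70% rose and 9.30% fell past the threshold. Lower at 2 months than at 1 month by at least 0.5 were 8.57% of all genes. Of 12 granule neuron progenitor markers all rose, as did all 17 mitosis genes. The lists shared 2 genes, and 4 of the progenitor markers were also among the granule lineage factors. All lists were chosen with earlier results of these data known, so their counts are no independent evidence. In the cerebellum 2 of the progenitor markers and 8 of the mitosis genes lay below the quartile used as the background limit. Of 12 mature granule neuron markers 8 fell, and their mean log2 level was 7.07 in the PtchLacZ/+ tumour, 7.67 and 8.08 in the SmoM2 tumours at 2 months and 1 month, and 11.41 in the cerebellum. Zic genes are also expressed in the meninges, and of 13 meningeal and fibroblast markers 2 rose and 2 fell. The mean level of these 13 was 7.05 in the PtchLacZ/+ tumour, 7.32 and 7.38 in the SmoM2 tumours, against 7.25 in the cerebellum. Of the markers of inhibitory interneurons 7 of 10 fell, of Purkinje cells 4 of 8, of astrocytes and Bergmann glia 6 of 10 and of oligodendrocytes 7 of 8. Of the microglia and macrophage markers 6 of 10 rose, and of 7 choroid plexus markers none passed. Beside the lower Zic levels in the 2-month SmoM2 tumour, 4 of 7 choroid plexus markers were lower at 2 months than at 1 month by at least 0.5 and 1 was higher. In the 2-month tumour 3 of the 7, all among the lower ones, lay below the quartile used as the background limit. Ttr, the transthyretin gene of the choroid plexus, was at 10.81 in the PtchLacZ/+ tumour, 4.50 and 11.27 in the SmoM2 tumours at 2 months and 1 month, and 6.23 in the cerebellum, and its 2-month level was not shown to exceed background. Of the meningeal and fibroblast markers 3 of 13 were lower at 2 months by at least 0.5 and 3 were higher. Aldh1a2, a retinoic acid synthesis gene of the meninges, was at 6.92 in the PtchLacZ/+ tumour, 6.66 and 9.30 in the SmoM2 tumours at 2 months and 1 month, and 7.11 in the cerebellum. Ttr and Aldh1a2 were chosen after their values were seen. The part of these cells in the Zic levels was not tested.

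The genes that flank the Zic pairs were read to see whether their surroundings moved with them. Nearest to the Zic1 and Zic4 pair were Tbc1d2b, which encodes a regulator of Rab proteins, on 1 side and the phospholipid scramblase gene Plscr1 on the other. Tbc1d2b was at 8.41 in the PtchLacZ/+ tumour, 8.22 and 8.36 in the SmoM2 tumours at 2 months and 1 month, and 7.48 in the cerebellum, and rose by 0.85 ± 0.18 (adjusted p = 0.0371). Plscr1 was at 9.25 in the PtchLacZ/+ tumour, 9.04 and 8.90 in the SmoM2 tumours, against 7.98 in the cerebellum, and rose by 1.08 ± 0.21 (adjusted p = 0.0293). Both lost the threshold when the PtchLacZ/+ tumour was left out (adjusted p = 0.156 and 0.102). Tbc1d2b also missed it without the 1-month SmoM2 tumour (adjusted p = 0.107) and with a trended prior variance (adjusted p = 0.0714).

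Beside the Zic2 and Zic5 pair, Pcca, a subunit gene of propionyl-CoA carboxylase, was at 8.41 in the PtchLacZ/+ tumour, 8.42 and 8.60 in the SmoM2 tumours at 2 months and 1 month, and 10.04 in the cerebellum, and fell by 1.56 ± 0.18 (adjusted p = 0.00858). On the other side, Gm5089 differed by -0.90 ± 0.63 (adjusted p = 0.438) and was at 6.49 in the PtchLacZ/+ tumour, 5.54 and 7.19 in the SmoM2 tumours at 2 months and 1 month, and 7.31 in the cerebellum. Over whole chromosomes, genes above the median level were compared with those of all other chromosomes. The shift of their median difference from the cerebellum was -0.0071, -0.04 and -0.0057 for chromosome 9 and -0.03, -0.11 and 0.05 for chromosome 14 in the PtchLacZ/+ tumour and the SmoM2 tumours at 2 months and 1 month.

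The genes with the most similar profiles over the 4 arrays were looked up among 9965 genes above the median level. Nearest to Zic1 were Aff4, a scaffold gene of the super elongation complex, Zfp142 and the lipid kinase gene Pikfyve, with root mean square differences of 0.0056, 0.02 and 0.03. Nearest to Zic2 were Shprh, Gtf2a2 and Arhgap21 (0.0087, 0.02 and 0.02). Nearest to Zic4 were the Wnt receptor gene Fzd3, Fubp1 and the semaphorin receptor gene Plxna3 (0.06, 0.06 and 0.07), and nearest to Zic5 were the RNA-binding protein gene Celf2, Prdm8 and Hrk (0.04, 0.05 and 0.05). Over these 4 arrays, 98, 109, 13 and 24 genes lay within 0.1 of Zic1, Zic2, Zic4 and Zic5.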

How the data were processed

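Total RNA of 4 samples was measured on 4 Affymetrix Mouse Gene 1.0 ST arrays. The authors deposited 1 table of log2 values for 35557 probe sets, which the submitters' processing notes credit to Affymetrix Expression Console. Its version, the summarisation and the normalization were not given in the sources used here, and a log2 scale was taken from the values' span of 2.71 to 14.9. Values were used as deposited. The platform annotation gave 1 symbol to 21789 probe sets, several to 1621 and none to 12147, and no probe set with several symbols named one of the 4 Zic genes. Symbols were updated by Entrez identifier through RefSeq for 21698 of them. The probe set with the highest mean was kept for each of 19938 genes. Array medians over these genes lay between 6.73 and 6.82.

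Tests used limma 3.58.1 in R 4.3.3 (lmFit and eBayes) with Benjamini-Hochberg adjustment over all genes and a threshold of 0.05. Tumours against cerebellum had 2 residual degrees of freedom and PtchLacZ/+ against SmoM2 had 1, with each lone sample assumed to vary like the replicated group. The script was tested on simulated data. Errors after ± are standard errors of the fit except where marked SD, and the number of arrays limits the precision. The members and the 12 gene lists were chosen with earlier results of these data known. Named genes were the Zic, Gli and Glis genes, Atoh1, the extremes of the granule lineage list, the nearest measured gene on each side of each Zic pair and the 3 most similar profiles per Zic gene, and exceptions are stated. Other marker lists are given by their counts. Alternatives were other normalizations, a filter on low levels, a trended prior variance, other uses of the probe sets and leaving out each tumour.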

Additional observations from a re-analysis of the deposited data

How the results depend on the processing

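No Zic gene changed direction or its side of the threshold under quantile normalization, centring of each array, a filter to genes above the median level, a trended prior variance or a test of all single-symbol probe sets. With the mean of a gene's probe sets the differences of tumours against cerebellum kept their sign but were 0.55 for Zic4 and 0.22 for Zic5. Leaving out each tumour in turn gave -0.32 to 0.0512 for Zic1, -0.43 to -0.09 for Zic2, 0.86 to 1.37 for Zic4 and 0.94 to 1.32 for Zic5, with the positive Zic1 value and the passing Zic4 and Zic5 values obtained without the 2-month SmoM2 tumour. For PtchLacZ/+ against a single SmoM2 tumour the range was -0.15 to 0.59 for Zic1, -0.0643 to 0.62 for Zic2, -0.29 to 0.71 for Zic4 and -0.16 to 0.60 for Zic5, with no test, and each negative value was against the 1-month tumour. The second Zic4 probe set was at -0.0357 after quantile normalization and ranged from -0.0276 to 0.0764 when a tumour was left out. Granule lineage factors past the threshold numbered 13 to 23 with a tumour left out (15 with all 3) and the Gli and Glis genes 2 to 4. The alternatives for the second probe sets, for the 2-month against the 1-month tumour and for other named genes were chosen after seeing the data. No paired analysis was possible because the labels name no pairs among the samples, which differ in genotype, tissue or age. With 1 array of cerebellum, its own spread was not measured, and the cause of these dependences was not tested.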
